A study of Mus musculus with 6 samples.

Results

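Contactins, L1 family proteins and NCAMs are neural cell adhesion molecules of the immunoglobulin superfamily. Transcripts of genes for these proteins and of *Cntnap2*, 10 genes in all, were examined in male E9.5 embryos with and without functional *Smchd1*. The genes were the contactins *Cntn1*, *Cntn2* and *Cntn4*, the L1 family genes *L1cam*, *Nrcam*, *Nfasc* and *Chl1*, the NCAM genes *Ncam1* and *Ncam2*, and *Cntnap2*, which encodes a contactin-associated protein. They were selected by symbol, as 10 of the 24207 loci in the expression table, each with 1 entry. The set was chosen from results of this same genotype comparison, with *Cntn2* already known to differ, so the ratios below are a description of these embryos and carry no test. RNA-seq had been performed on 6 whole embryos, 3 *Smchd1*+/+ and 3 *Smchd1*MommeD1/MommeD1, each homozygous mutant carrying a nonsense allele made by chemical mutagenesis on both chromosomes. The sample labels give C57Bl6/J and FVB/n as the background strains of every embryo, whereas the study's text describes a backcross to a strain that the labels do not name, and the files do not settle which holds. Yolk sacs had been taken for genotyping. Litter and somite stage are given for neither genotype.

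Contactins hang on the outer face of the neuronal membrane by a lipid anchor, whereas L1 family proteins and the longer forms of NCAM span the membrane and bind the cytoskeleton through ankyrins and spectrin. They bind one another on the same and on neighbouring cells, and are known for guiding growing axons and holding them in bundles. In the midgestation embryo the first neurons of the hindbrain, spinal cord and sensory ganglia extend such axons, and *Cntn2*, also called TAG-1, is an early marker of motor, sensory and commissural neurons.

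Transcript levels are in FPKM, fragment counts corrected for the length of the transcript and the size of the library, so that levels can be set side by side between genes. Each genotype has a single value per locus, pooled by the authors over its 3 embryos. No value per embryo was used, so no spread between embryos, no SD and no p-value can be given, and the depth is unknown. *Smchd1*, the mutated gene, had 34.0 FPKM in wildtype and 2.12 FPKM in homozygous mutant embryos, the direction that the genotypes imply. Log2 ratios are of mutant over wildtype with 0.1 FPKM added to each value, which understates the change of low genes. Where a pair of FPKM values is given without genotypes, the mutant value comes first. A mean of 1 FPKM or more was reached by 12463 loci, of which 95.0% lay within 1.5-fold of equality, and their median log2 ratio was -0.0076.

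Of the 10 adhesion genes, *Cntn2* was far higher in *Smchd1*MommeD1/MommeD1 embryos, *Nfasc* and *L1cam* were higher by less, and the remaining 7 had log2 ratios between -0.15 and 0.34. Across all 10, 7 had a higher and 3 a lower value in the mutants, low genes included. Of the 6 with a mean of 1 FPKM or more, 4 were higher and 2 lower. Over all loci at that level, 48.2% were higher. The level of 1 FPKM was reached by 6 genes, *Ncam1*, *Cntnap2*, *Nrcam*, *Cntn2*, *Nfasc* and *L1cam*, of which *Cntn2* passed only through its level in the mutants. Of these 6, 1 was at least 2-fold higher, against a background of 0.979% of all loci at that level, and 3 were at least 1.5-fold higher, against 3.51%. None was lower by 2-fold or by 1.5-fold, where the background was 0.514% and 1.47%. Since the set was chosen from this contrast, nothing is read from these counts. The median log2 ratio over the 6 genes, *Cntn2* included, was 0.44, and over all 10 with no filter it was 0.21.

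**Figure D1:**
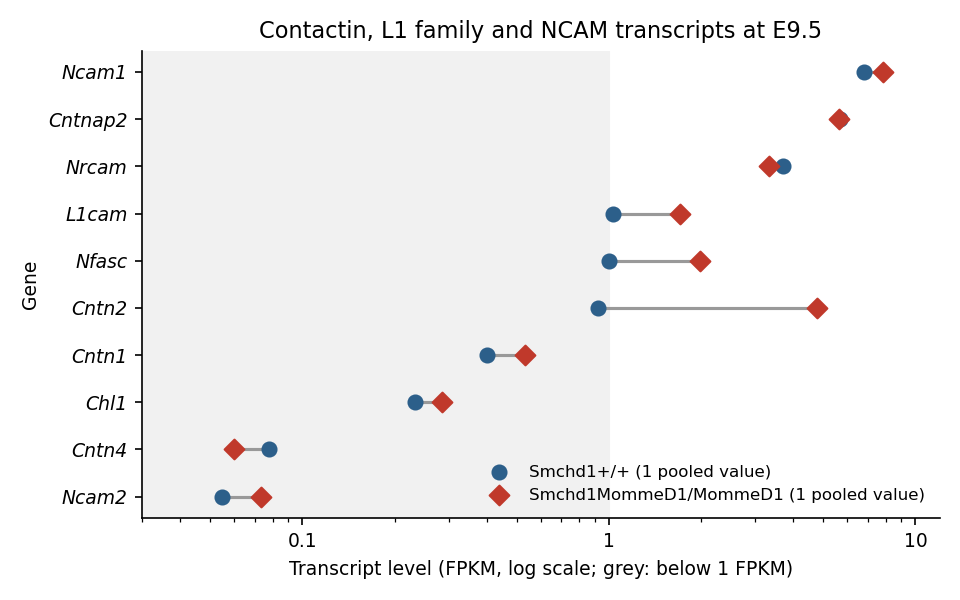
Transcript level (FPKM, log scale) of the 10 adhesion genes, ordered by their level in *Smchd1*+/+ embryos, with a circle for the pooled *Smchd1*+/+ value and a diamond for the pooled *Smchd1*MommeD1/MommeD1 value. *Cntn2* moves from 0.925 to 4.76 FPKM, whereas the symbols of *Cntnap2* coincide at 5.65 and 5.66 FPKM.

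Among the contactins, *Cntn2* had 0.925 FPKM in wildtype and 4.76 FPKM in mutant embryos, a 5.15-fold difference and a log2 ratio of 2.25. Ranked by log2 ratio, its rank was 12 among the 12463 loci at that level. *Cntn1*, which in the adult forms the axonal side of the paranodal junction, was at 0.532 FPKM in mutants and 0.40 FPKM in wildtypes, a log2 ratio of 0.34. *Cntn4*, a contactin known from the olfactory and visual systems, was barely detected, at 0.060 and 0.078 FPKM. At *Cntn4*, as at *Chl1* and *Ncam2*, the authors' program found too few reads to compare the genotypes. *Cntn2* was thus the one contactin gene above 1 FPKM in either genotype, since *Cntn3*, *Cntn5* and *Cntn6* were also low, with *Cntn3* the highest of them at 0.232 and 0.230 FPKM.

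*Cntn2* lies on the minus strand of chromosome 1 of MM10 from 132509425 to 132542940, and its longest coding transcript has 23 exons. The start of the locus in the table coincides with the start that RefSeq gives, and the window from 250 bases before to 50 after it, chr1:132542891-132543190 on the minus strand, is shown because this gene had the largest ratio of the set. The windows of *Nfasc* (chr1:132707277-132707576, minus strand, at a start inside the locus) and of *L1cam* (chrX:73880785-73881084, minus strand) follow, as those of the other genes at least 1.5-fold higher. Each is read 5′ to 3′ from RefSeq on GRCm38.p6, and capitals mark a match to CAGATG on either strand.
Cntn2: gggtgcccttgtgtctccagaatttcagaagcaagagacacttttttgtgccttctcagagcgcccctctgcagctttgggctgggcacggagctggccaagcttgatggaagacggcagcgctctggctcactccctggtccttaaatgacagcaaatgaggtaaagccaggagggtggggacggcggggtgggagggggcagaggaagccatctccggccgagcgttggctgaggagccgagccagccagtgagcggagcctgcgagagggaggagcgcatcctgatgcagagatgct
Nfasc: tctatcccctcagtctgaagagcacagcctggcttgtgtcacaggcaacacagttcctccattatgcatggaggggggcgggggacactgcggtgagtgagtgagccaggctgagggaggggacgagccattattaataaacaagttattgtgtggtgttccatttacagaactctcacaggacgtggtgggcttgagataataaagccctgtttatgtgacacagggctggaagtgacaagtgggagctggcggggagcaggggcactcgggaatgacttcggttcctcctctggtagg
L1cam: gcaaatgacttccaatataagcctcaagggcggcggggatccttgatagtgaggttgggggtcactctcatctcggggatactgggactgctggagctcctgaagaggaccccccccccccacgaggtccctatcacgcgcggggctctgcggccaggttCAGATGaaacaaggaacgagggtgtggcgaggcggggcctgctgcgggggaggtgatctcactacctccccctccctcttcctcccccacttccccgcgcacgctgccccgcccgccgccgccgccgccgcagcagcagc

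Windows were found for 9 of the 10 genes, 15 in all because some genes have several starts, and *Ncam1* had none. The Cntn2 window held 13 CpG dinucleotides, the Nfasc window 7 and the L1cam window 22, where the median of 32851 windows was 7. The windows at the locus start of 5 genes within 1.5-fold held 9 at *Cntn1*, 13 at *Chl1*, 14 at *Cntnap2*, 37 at *Nrcam* and 41 at *Ncam2*, a range that includes the counts of *Cntn2* and *L1cam*. Of the motifs searched on both strands, CAGATG lay in both overlapping windows of *L1cam* and in none of the other genes, and starts 90 bases before the start site in the window shown. It occurs in 17.1% of all windows. CAGCTG, found in 16.3% of all windows, lay in 2 windows of *Cntn4* and in the further window of *Nfasc*. TAATTA, found in 5.29%, lay in 1 window of *Cntn4*. The Cntn2 window held no match to these motifs.

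The L1 family genes had unlike ratios. *Nfasc* (chromosome 1, 132564690 to 132741797), which encodes neurofascin, had 1.0 FPKM in wildtype and 1.99 FPKM in mutant embryos, a log2 ratio of 0.92. *L1cam*, the founding member and the one X-linked gene of the set (chromosome X, 73853780 to 73880834), had 1.03 FPKM in wildtype and 1.70 FPKM in mutant embryos, a log2 ratio of 0.67. With males only, each embryo had a single X chromosome. *Nrcam* (chromosome 12, 44328885 to 44605130), whose product takes part in axon guidance and node assembly, was more abundant than either in both genotypes, at 3.32 FPKM in mutants and 3.69 FPKM in wildtypes, and its log2 ratio was -0.15. *Chl1*, the close homologue of L1, was at 0.286 and 0.234 FPKM (log2 ratio 0.21). In absolute terms *Nfasc* differed by 0.986 FPKM and *L1cam* by 0.672 FPKM between the genotypes, and no replicate spread is at hand to weigh differences of that size.

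*Ncam1* was the most abundant of the 10 genes in both genotypes, with 6.79 FPKM in wildtypes and 7.84 FPKM in mutants and a log2 ratio of 0.21. It is a broad neural marker, expressed by neurons and by other embryonic tissues such as muscle and heart. Its relative *Ncam2*, best known from olfactory neurons, was at 0.074 and 0.055 FPKM. *Cntnap2*, whose product pairs with contactin-2 next to the nodes of Ranvier in mature axons, was the second most abundant at 5.65 and 5.66 FPKM, a log2 ratio of -0.0024. The pooled values of these partners thus differed 5.15-fold for *Cntn2* and by less than 0.01 FPKM for *Cntnap2*, which lies at chromosome 6, 45060061 to 47301371. The other contactin-associated genes, *Cntnap1*, *Cntnap3*, *Cntnap4*, *Cntnap5a*, *Cntnap5b* and *Cntnap5c*, were each at or below 0.143 FPKM in both genotypes.

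In *Smchd1*+/+ embryos the order of levels was *Ncam1*, *Cntnap2*, *Nrcam*, *L1cam*, *Nfasc* and *Cntn2*, followed by *Cntn1*, *Chl1*, *Cntn4* and *Ncam2*. In *Smchd1*MommeD1/MommeD1 embryos *Cntn2* stood between *Cntnap2* and *Nrcam* and made up 18.2% of the summed FPKM of the 10 genes, against 4.66% in wildtype embryos. The sum itself was 26.2 FPKM in mutants and 19.9 FPKM in wildtypes, a difference of 6.35 FPKM of which *Cntn2* accounted for 3.83. Without *Cntn2* the sums were 21.5 and 18.9 FPKM. Neighbours in the order such as *L1cam*, *Nfasc* and *Cntn2* in wildtype embryos cannot be ranked without a spread between embryos.

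**Figure D2:**
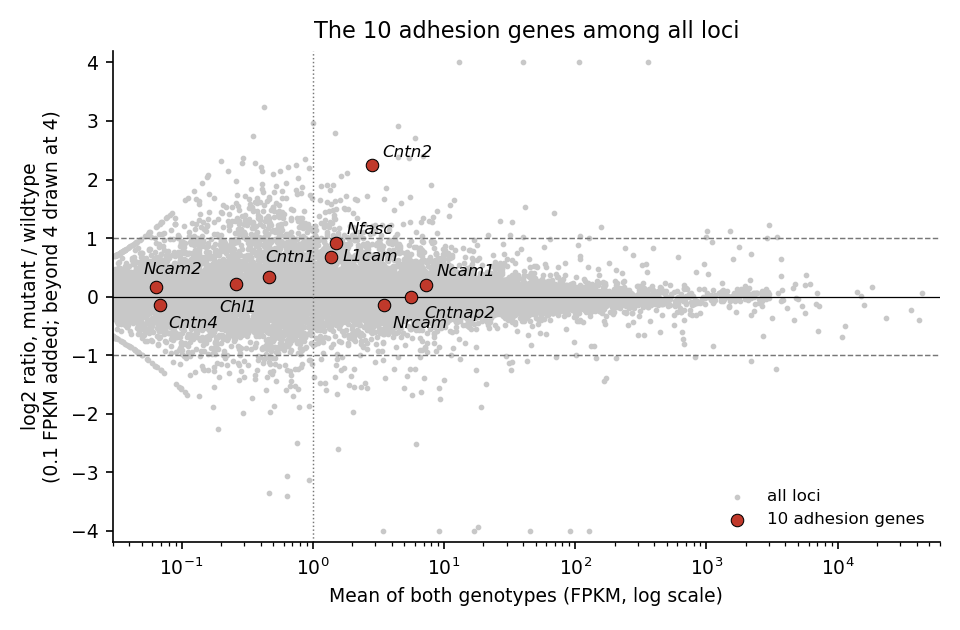
Log2 ratio of mutant over wildtype (vertical axis, 0.1 FPKM added, values beyond 4 or -4 drawn there) against the mean FPKM of both genotypes (log scale), with every locus of at least 0.03 FPKM as a grey point and the 10 adhesion genes as labelled red points. Dashed lines mark 2-fold and the dotted line 1 FPKM. *Cntn2*, at 2.25, lies above nearly all loci of its level, and the other 9 lie below the 2-fold line.

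Genes for proteins that bind or modify these adhesion molecules were mostly within 1.5-fold between the genotypes. Of 29 symbols listed for them, 27 were in the table and 22 reached a mean of 1 FPKM, of which 11 were higher and 11 lower, with a median log2 ratio of 0.00082. Of the 22, 3 were at least 1.5-fold higher, where the share over all loci at that level was 3.51%, and 1 at least 2-fold, where it was 0.979%. The gene past 2-fold was *Dcx*. It encodes doublecortin, a microtubule protein of young neurons that binds neurofascin, and had 1.62 FPKM in wildtypes and 5.37 FPKM in mutants, a log2 ratio of 1.67. *Gfra1*, a GDNF receptor that can signal through NCAM, had a log2 ratio of 0.63 (3.84 and 2.44 FPKM). *St8sia2*, the embryonic enzyme that adds polysialic acid to NCAM, had 0.59 (5.38 and 3.54 FPKM), whereas *St8sia4*, the other such enzyme, had 0.094. *Ptprz1*, a receptor phosphatase that binds contactin-1, was lower at 3.20 and 4.22 FPKM, a log2 ratio of -0.39. The ankyrin genes *Ank2* and *Ank3* had log2 ratios of 0.31 and -0.01, and *App*, a binding partner of contactins, had 0.15. The perineuronal proteoglycan gene *Ncan* had a mean just under 1 FPKM, at 1.35 and 0.623 FPKM, a 2.16-fold difference.

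Other adhesion genes of the immunoglobulin superfamily were mostly within 1.5-fold between the genotypes. Of 15 entries that reached 1 FPKM, 7 were higher and 8 lower, and the median log2 ratio was -0.015. In this list 1 was at least 1.5-fold higher, where the share over all loci at that level was 3.51%. None was past 2-fold, where 0.979% of all loci were higher and 0.514% lower by as much. The largest of the 15 were *Cadm4* at 0.71 (8.29 and 5.05 FPKM), the shared locus of *Cadm3* and *Darc* at 0.39, *Ntm* at 0.37 and *Nptn* at -0.34. Among the 8 entries below that level, *Thy1* at -0.87 (0.189 and 0.428 FPKM) and *Opcml* at 0.54 (0.343 and 0.204 FPKM) were farthest from 0. Both had too few reads to compare the genotypes.

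Markers of neurons were higher in *Smchd1*MommeD1/MommeD1 embryos. In bulk tissue, more cells of a type and more RNA per cell cannot be told apart. All 7 neuron markers that reached a mean of 1 FPKM were at least 1.5-fold higher and 5 at least 2-fold, with a median log2 ratio of 1.37. Over all loci at that level these shares were 3.51% and 0.979%. The 11 neuron markers found in the table summed to 186 FPKM in mutants and 73.4 FPKM in wildtypes, and none was at 0. The largest log2 ratios were those of the neurofilament genes *Nefm* (1.57), *Ina* (1.46) and *Nefl* (1.37) and of the tubulin gene *Tubb3* (1.43, at 99.9 and 37.0 FPKM), with the RNA-binding protein gene *Elavl3* at 1.14. The 4 markers with a mean below 1 FPKM, *Mapt*, *Syt1*, *Snap25* and *Rbfox3*, had log2 ratios from 0.93 to 1.26. Minus the neuron marker median, the log2 ratio of *Cntn2* was 0.87, whereas that of *Nfasc* was -0.45, that of *L1cam* -0.70 and that of *Ncam1* -1.17. The value for *Cntn2* depends on the amount added to each level. With 1 FPKM added, its log2 ratio was 1.58 and the neuron marker median 1.25, which lie closer together. Of 9 genes of motor, sensory and commissural neurons, 8 were higher with a median of 0.35, led by *Lhx9* (1.23), *Isl2* (0.84) and *Pou4f1* (0.71). All 11 of this list summed to 30.3 FPKM in mutants and 20.9 FPKM in wildtypes. Of these, *Isl1*, a marker of motor and sensory neurons, was at 8.58 and 6.72 FPKM and *Ntrk3* at 1.19 and 1.35 FPKM. Below 1 FPKM, *Robo3*, a receptor of commissural axons, was at 0.403 and 0.106 FPKM, a log2 ratio of 1.29. At *Robo3* too the authors' program found too few reads to compare the genotypes. The part of these neuron markers in the difference of *Cntn2* was not tested.

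Markers of neural progenitors and neural crest had ratios nearer 0. All 8 neural progenitor markers passed the level of 1 FPKM and 7 were higher, with a median log2 ratio of 0.27 and summed levels of 310 and 239 FPKM. *Fabp7*, a fatty acid binding protein of radial glia, had 1.06, and *Nes*, *Hes5* and *Msi1* had 0.52, 0.52 and 0.33. All 5 neural crest and glial precursor markers at that level were slightly lower, with a median of -0.097. Among them were *Sox10*, *Foxd3*, *Erbb3* and *Tfap2a*, and all 6 markers of the list summed to 24.8 and 26.3 FPKM. Of 11 markers of other embryonic tissues, 10 reached 1 FPKM and 5 of these were higher and 5 lower, with *Myog* (1.21), *Hba-x* (1.02), *Gata1* (0.97) and *T* (-1.24) the farthest from 0, and a median of 0.068. *Cubn*, expressed in visceral endoderm and yolk sac, missed that level through its low mutant value, at 0.157 and 1.37 FPKM and a log2 ratio of -2.51, the farthest from 0 of all 11. With no filter the median of the list was -0.17. The part of these cells and tissues in the values of the adhesion genes was not tested either.

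**Figure D3:**
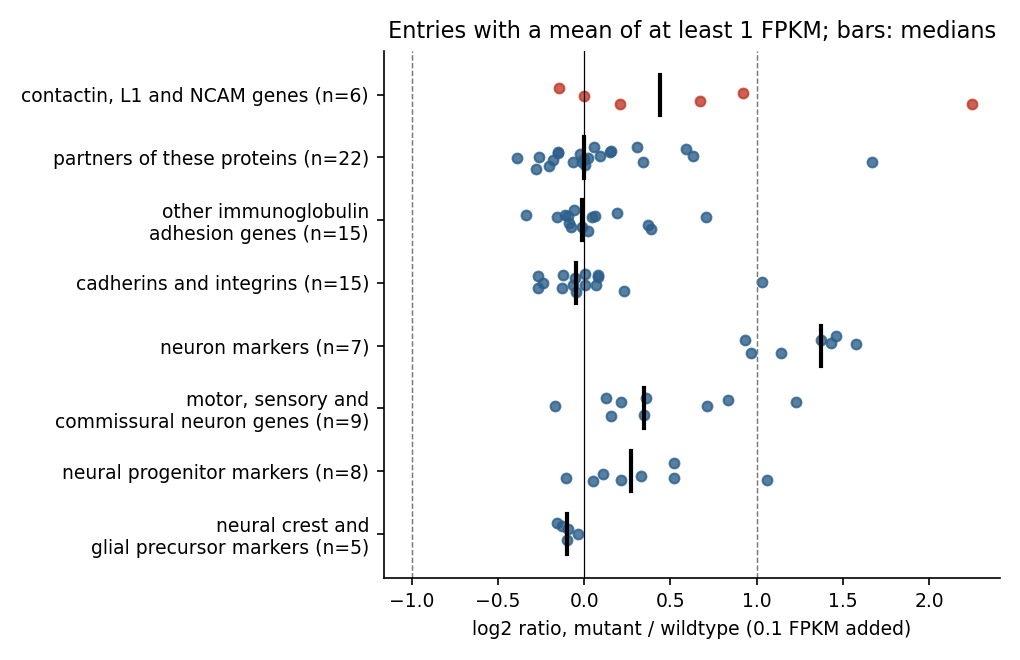
Log2 ratio of mutant over wildtype (horizontal axis, 0.1 FPKM added) for each entry that reached a mean of 1 FPKM in 8 gene lists, with a black bar at the median of each list, the adhesion genes in red and dashed lines at 2-fold. The 7 neuron markers lie between 0.93 and 1.57, the adhesion genes spread from -0.15 to 2.25, and the partner genes have a median of 0.00082.

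*Nfasc* is the neighbour of *Cntn2*, on the same strand, with a gap of 21.8 kb between the loci. The genes around them were examined for this reason. Within 500 kb of *Cntn2*, 8 loci other than *Nfasc* reached a mean of 1 FPKM, with log2 ratios from -0.16 to 0.64 and a median of 0.15, and none was past 2-fold. The locus beyond its 3′ end, shared by *Rbbp5* and *Tmem81*, ends at 132508639, close to the *Cntn2* edge at 132509425. This shared locus was at 19.6 and 17.7 FPKM, a log2 ratio of 0.15. The highest was *Lrrn2*, named here after its value was seen, a neuronal leucine-rich repeat membrane protein gene beyond *Nfasc*, at 1.62 and 1.01 FPKM. On the X chromosome, 28 loci within 500 kb of *L1cam* had log2 ratios from -0.31 to 0.57 with a median of -0.015. Around all 10 genes, 51 other loci were counted, of which 1 was at least 1.5-fold higher, 0 were as much lower and 0 passed 2-fold in either direction. Over all loci at that level, 3.51% were at least 1.5-fold higher and 1.47% as much lower. *Cntn1*, *Chl1* and *Ncam2* had no other locus at that level within 500 kb. The libraries were nondirectional, so transcripts from both strands of a locus are summed. Annotated entries overlapping the adhesion genes were at most 0.262 FPKM, at *Gm11149* within *Ncam1*. Transcripts without an entry, and reads running on from an adjacent locus, are not seen in this way, and their part was not tested.

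**Figure D4:**
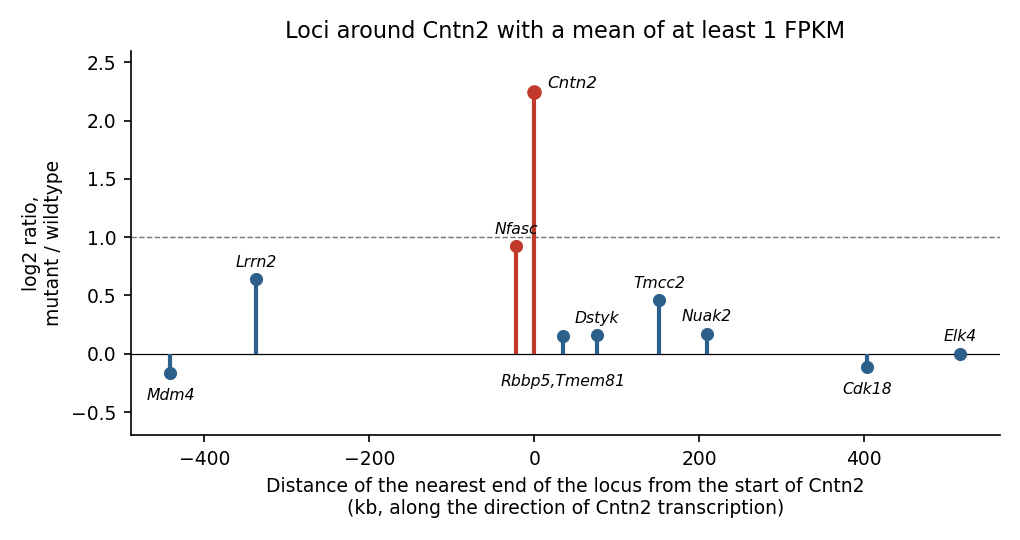
Log2 ratio of mutant over wildtype (vertical axis) for the loci that reached a mean of 1 FPKM around *Cntn2*, placed by the distance in kb of their nearest end from the start of *Cntn2*, with positive distances in its direction of transcription and the adhesion genes in red. *Cntn2* stands at 2.25 and *Nfasc* at 0.92, and the other 8 loci lie between -0.16 and 0.64.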

How the data were processed

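The samples were 6 embryos, grouped by the genotype in their labels. Per the submitters' processing notes, reads were aligned to mm10 with TopHat2 2.0.6 and Bowtie2 2.0.2 and quantified with Cufflinks and Cuffdiff 2.0.2. The deposited FPKM values, 1 per genotype and pooled by the authors over embryos, were taken as they stand. The authors' own fold changes, test statistics, p-values and q-values in the same table were not used. The column codes do not spell out the genotype, which was read from the study's own copy of this table.

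Log2 ratios were computed with 0.1 FPKM added, and medians and counts over entries with a mean of at least 1 FPKM. Locus starts were counted from 1. The 10 genes, the 9 further gene lists (relatives, partners, other immunoglobulin adhesion genes, cadherins and integrins, neuron markers, motor, sensory and commissural neuron genes, neural progenitors, neural crest, other tissues) and the rules were chosen with earlier results of these data known. Named genes were all 10, and of each list up to 4 with the largest ratio and any past 2-fold, except that some genes are not reported here. Other pseudocounts, filters, folds and scalings were tried. *Ank2*, *Ank3*, *App*, *St8sia4*, *Ncan*, *Isl1*, *Ntrk3*, *Cubn*, all genes named with a mean below 1 FPKM, the relatives and *Lrrn* genes were named outside that rule, after their values were seen. *Sox10* and the locus of *Rbbp5* and *Tmem81* were also named outside it. Exon numbers came from GENCODE M21. Python 3.11.15, numpy 2.4.6 and pandas 2.3.3 were used, and steps were tested on simulated data with large set changes and little noise. That test checked ratios centred on the median, whereas the ratios above were not centred, so it does not bear on small differences.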

Additional observations from a re-analysis of the deposited data

How the results depend on the processing

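No paired analysis was possible because the table holds 1 pooled value per genotype, and for the same reason no embryo could be left out in turn. The depth of the libraries is unknown, so that low levels such as those of *Cntn4* and *Ncam2* have no stated precision. A value was taken as moved when it shifted by 1.5-fold or more. Of the alternative values for the counts past 2-fold and the median of the adhesion genes, 32 held and 1 moved, since 3 genes rather than 1 were higher at a 1.5-fold threshold, by construction. This tally says little. A median of 0.44 could fall to 0 without being taken as moved. Summing the entries of a symbol or leaving out failed loci could not change the values, as each gene has 1 entry and none was marked failed. The median stayed between 0.21 and 0.48. The log2 ratio of *Cntn2* lay between 1.58, with 1 FPKM added, and 2.36, with nothing added. With 1 FPKM added it was taken as moved, as no other ratio of the 10 genes was. The log2 ratios of *Nfasc* lay between 0.58 and 0.99 and those of *L1cam* between 0.41 and 0.72. *Cntnap2*, close to 0, changed sign in 3 of 7 alternatives, and no other of the 10 genes did. The median of the other tissue markers turned from 0.068 to -0.17 with a filter of 0.1 FPKM or none, and those of the partners and other immunoglobulin genes, near 0, also changed sign under some scalings or filters. The other scalings multiplied wildtype values by 0.970 to 1.01. Over all loci, 122 were at least 2-fold higher and 64 lower, against 54 and 41 with 1 FPKM added, 357 and 148 from 0.1 FPKM, 385 and 164 without a filter, and 32 and 16 at 3-fold. Leaving out loci that the authors' program marked as failed or too deep, an alternative chosen after seeing the data, gave 122 and 62.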

Other observations

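Adhesion molecules of other classes differed little. All 15 cadherin and integrin genes reached a mean of 1 FPKM, 7 higher and 8 lower in mutants. Their median log2 ratio was -0.050. *Itgb3*, the integrin subunit of megakaryocytes and platelets, was the exception at 3.12 and 1.48 FPKM, a log2 ratio of 1.03. *Cdh1*, the cadherin of epithelia, and *Itga6* had log2 ratios of -0.27, with *Itga3* at -0.24.

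The relatives of *Lrrn2*, looked up after its value had been seen, did not move one way. *Lrrn1* had 15.7 FPKM in wildtypes and 22.9 FPKM in mutants, a log2 ratio of 0.54. *Lrrn3* had 0.97 and *Lrrn4* -0.62.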
